A study of Rattus norvegicus with 28 samples.

Results

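The genes described here are 4 collagens that do not build the main fibrils of muscle connective tissue: Col14a1 and Col16a1, which are fibril-associated, Col17a1, which spans the plasma membrane, and Col18a1, which lies in basement membranes. They were chosen by name and matched to the counts by the Ensembl identifier that the study pairs with each symbol, which gave 4 of the 32883 genes counted. RNA-seq counts were available for the tibialis anterior muscles of both legs of 14 rats, 28 muscles in all, in 4 groups of 7. In the VDR-OE arm, male Wistar rats housed from 8 weeks of age received a plasmid with mouse vitamin D receptor (pCAGGS-mVDR per the labels, with pCMV6 named in the study's methods) by in vivo electrotransfer into the right muscle and the empty vector into the left, and were killed 10 days later after an overnight fast. In the VDR-KD arm, other rats received a short hairpin RNA against Vdr on the right and a scrambled hairpin on the left; their age and the time of collection are not given in the sources used here. All rats received the painkiller carprofen, and the control muscles were electroporated too. The left muscles are called VDR-OE control and VDR-KD control below; the labels name them sham knock-in and sham knock-out. Both constructs reach muscle by electrotransfer, which does not transfect every fibre or cell, and whole muscle was sequenced.

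Collagens with interrupted triple helices, such as types XIV and XVI, attach to the surface of fibrils made of collagen I and III and link them to neighbouring matrix. Collagen XVII is best known from skin, where it anchors basal keratinocytes to the basement membrane as part of the hemidesmosome and can be shed from the cell surface. Collagen XVIII is a heparan sulphate proteoglycan of vascular, epithelial and muscle basement membranes, and its C-terminal fragment is endostatin. In bulk muscle a difference in such a transcript cannot be told apart from a difference in the number of cells that make it.

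Promoters are shown because the transgene is a transcription factor that binds DNA, so that a reader can see the sequence next to which each gene starts. RefSeq (build GRCr8) gave the 250 bases before the start of 3 of the 4 genes, and the sequence of Col14a1 is not shown. Capitals mark a GC box (GGGCGG, read as CCGCCC from the other strand) or TATAAA, with both strands searched. Col16a1 lies at chr5:147672846-147673095 on the plus strand, Col17a1 at chr1:256518858-256519107 on the minus strand and Col18a1 at chr20:11473395-11473644 on the plus strand; counts were made on an earlier rat build, so these positions do not apply to the count files.
Col16a1: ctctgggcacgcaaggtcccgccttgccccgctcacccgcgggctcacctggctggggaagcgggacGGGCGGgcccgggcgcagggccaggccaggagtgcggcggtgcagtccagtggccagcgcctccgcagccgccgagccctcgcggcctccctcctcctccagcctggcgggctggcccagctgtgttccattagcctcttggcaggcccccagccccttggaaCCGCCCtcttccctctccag
Col17a1: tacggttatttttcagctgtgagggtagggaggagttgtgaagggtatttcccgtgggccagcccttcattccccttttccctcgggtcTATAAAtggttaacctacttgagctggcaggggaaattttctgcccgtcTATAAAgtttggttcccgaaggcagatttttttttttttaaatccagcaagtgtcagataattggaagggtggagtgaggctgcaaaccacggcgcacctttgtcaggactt
Col18a1: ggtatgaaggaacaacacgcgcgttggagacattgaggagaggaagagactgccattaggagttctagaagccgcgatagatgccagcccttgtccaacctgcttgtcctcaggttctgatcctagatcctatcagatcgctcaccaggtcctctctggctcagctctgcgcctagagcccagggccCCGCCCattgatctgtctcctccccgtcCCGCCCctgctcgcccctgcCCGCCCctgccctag
The 3 windows differed in composition. The Col16a1 window had 74.8% G and C, with GC boxes starting 183 and 20 bases before the start. In Col18a1 the share was 60.4%, and 3 GC boxes started 63, 35 and 15 bases before the start. Col17a1 had 47.2% and no GC box, but TATAAA at 161 and 112 bases before the start. Over 33465 rat promoters of this length the median share was 51.2%, 30.5% held a GC box and 12.9% held TATAAA. The letters of a VDR half-site (AGGTCA, its variant AGTTCA, or the forms GGGTCA and likewise GGTTCA) occurred in none of the 3 windows and in 39.1% of all promoters, and a pair of half-sites 3 bases apart occurred in none of them and in 0.093% of all. The absence of these letters says nothing about binding elsewhere.

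The series as a whole sets limits on each value below. Libraries held between 36684220 and 46312167 counted reads. Vdr, the targeted gene, ranged from 1.91 to 6.73 normalised CPM (counts scaled to library size) in VDR-OE control muscles, and from 201 to 5938 in 6 of the VDR-OE muscles. The VDR-OE muscle of rat 419 held 5.45, against 5.75 in its own control muscle, so it did not show the labelled overexpression. Reads from the mouse plasmid were counted only where they aligned to rat Vdr. In the VDR-KD arm Vdr was 0.25 lower on the log2 scale (SE 0.41, edgeR adjusted p = 0.929) and lower in 4 of 7 rats, so the right legs are described as muscles labelled VDR-KD. Symbols were known for 1995 of the 32883 genes (6.07%), all of them from the study's table of genes ranked on the VDR-OE comparison; the 4 collagens and every other named gene thus come from a list chosen on these muscles, and their direction in the VDR-OE arm is not independent of that choice. None of the 7 myofibre, 6 tendon, 6 endothelial or 4 Schwann cell markers looked for has a symbol there, so the tissue label was not checked against them.

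**Figure D1:**
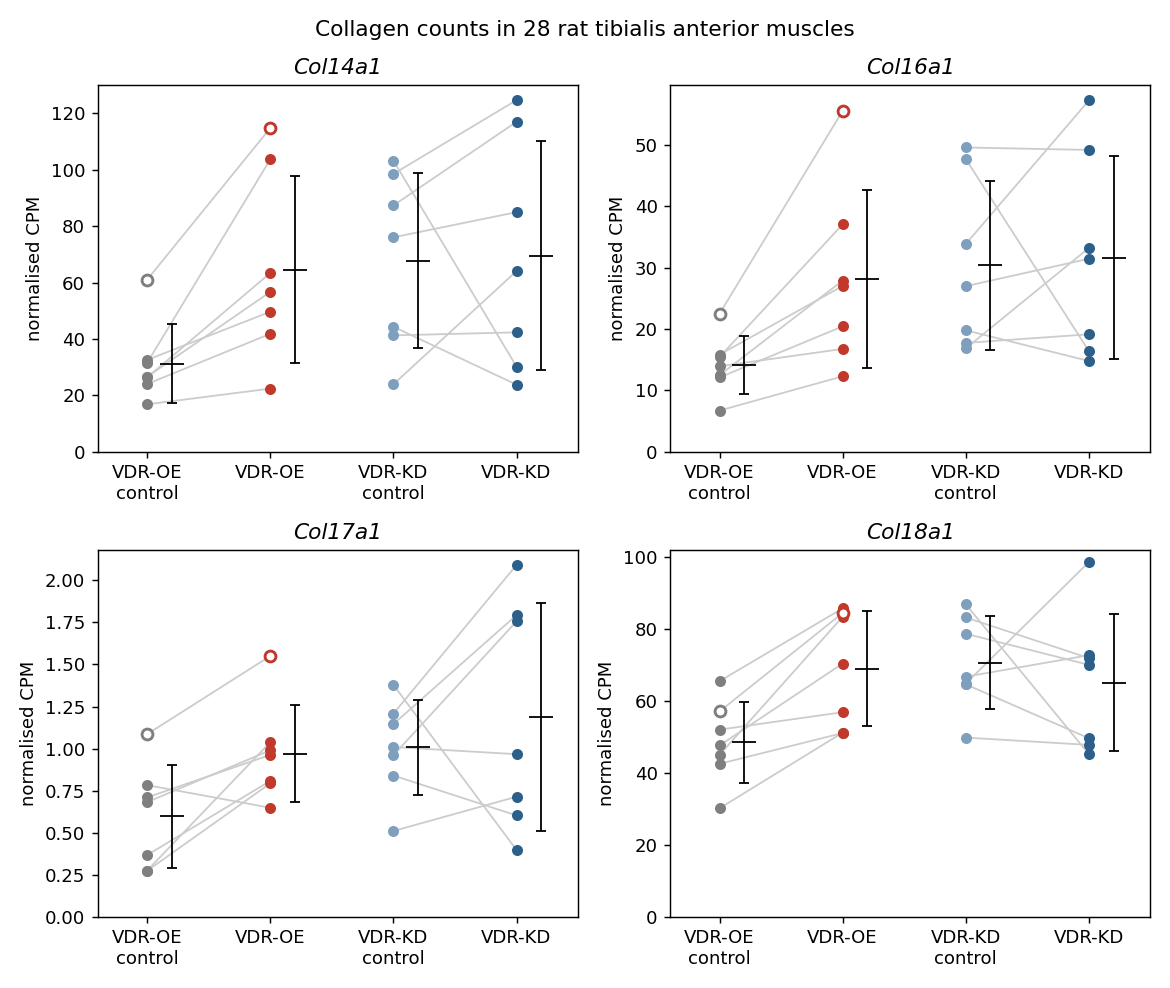
Normalised CPM (y axis, linear from 0) of each collagen in the 28 muscles, by group (x axis); grey lines join the legs of one rat, open circles are rat 419, and the black bar with whiskers is the mean ± SD (n = 7). The VDR-OE control muscles have the lowest mean for each of the 4 genes, from 0.596 for Col17a1 to 48.5 for Col18a1.

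All 4 collagens were higher in VDR-OE muscles than in the control muscles of the same rats. Col14a1 rose 1.97-fold, Col16a1 1.89-fold, Col17a1 1.70-fold and Col18a1 1.43-fold. Col17a1, the least counted, did not pass a stricter test. None of the 4 differed detectably between the legs of the VDR-KD arm. In the VDR-OE arm edgeR's likelihood ratio test with rat as block called 2262 of 14526 genes (15.6%) with adjustment over all genes and a threshold of 0.05, and 1527 (10.5%) higher. Its quasi-likelihood test called 1037 (7.14%), and that value is given beside each collagen.

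Col14a1, a fibril-associated collagen of tendon and muscle connective tissue, was measured at between 554 and 7268 reads per muscle. Its level in VDR-OE control muscles ran from 16.8 to 61.0 normalised CPM with a median of 26.6, and in VDR-OE muscles from 22.4 to 115 with a median of 56.7. The groups overlapped, with 3 VDR-OE muscles above every control muscle, while 7 of 7 rats had more Col14a1 on the right than on the left. The log2 fold change was 0.98 (SE 0.16, edgeR likelihood ratio adjusted p = 1.65e-07, quasi-likelihood adjusted p = 0.0183). Within rats the log2 ratio was 0.97 ± 0.43 (SD, n = 7), from 0.41 in rat 422 to 1.72 in rat 418. This was larger than the spread between rats, and the exact sign-flip permutation p of 0.0156 (two-sided, n = 7) is the smallest that 7 pairs can give. In the VDR-KD arm the level ran from 23.9 to 103 with a median of 76.0 in control muscles, and from 23.8 to 125 with a median of 64.1 in muscles labelled VDR-KD. The ranges lay almost on top of each other.

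Col16a1, which associates with fibrils and also occurs near basement membranes, was measured at 221 to 3335 reads per muscle. VDR-OE control muscles held 6.72 to 22.5 normalised CPM, with a median of 13.9. VDR-OE muscles held 12.3 to 55.5, with a median of 27.0. Of the 7 VDR-OE muscles, 4 were above every control muscle and all 7 were above the other leg of the same rat. The log2 fold change was 0.92 (SE 0.14, edgeR likelihood ratio adjusted p = 2.94e-08, quasi-likelihood adjusted p = 0.0163). The within-rat log2 ratio was 0.91 ± 0.37 (SD, n = 7), lowest in rat 416 at 0.26 and highest in rat 419 at 1.30 (exact permutation p = 0.0156). Rat 416 was the only one in which the ratio of Col16a1 stayed under 0.7. Control muscles of the VDR-KD arm held 16.8 to 49.5 with a median of 27.0, and the muscles labelled VDR-KD 14.8 to 57.2 with a median of 31.4.

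Col17a1, the transmembrane collagen of hemidesmosomes, was rare in this muscle, at 9 to 122 reads per muscle. VDR-OE control muscles held 0.272 to 1.09 normalised CPM with a median of 0.681, and VDR-OE muscles 0.648 to 1.55 with a median of 0.962. Only 1 VDR-OE muscle was above every control muscle, although 3 control muscles were below every VDR-OE muscle. The log2 fold change of 0.77 (SE 0.27) passed edgeR's likelihood ratio test at an adjusted p of 0.036. It did not pass the quasi-likelihood test (adjusted p = 0.0863) or DESeq2 (adjusted p = 0.0545). Within rats the log2 ratio was 0.81 ± 0.73 (SD, n = 7), higher in 6 of 7 rats, with an exact permutation p of 0.0312. Rat 416 went the other way, at -0.27, on 39 reads under empty vector and 22 under VDR, and rat 422 was highest at 1.88, on 9 and 47 reads. Leaving out any rat other than 416 brought the adjusted p of the likelihood ratio test to between 0.0604 and 0.136, and leaving out rat 416 brought it to 0.00197. The range of the VDR-KD arm widened from 0.509 to 1.38 in control muscles to 0.397 to 2.09 in those labelled VDR-KD, with medians of 1.01 and 0.966.

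Col18a1, the basement membrane proteoglycan that yields endostatin, varied least among muscles in each of the 4 groups. VDR-OE control muscles held 30.1 to 65.4 normalised CPM with a median of 47.6, and VDR-OE muscles 51.0 to 85.7 with a median of 70.3. Of the VDR-OE muscles, 4 were above every control muscle, and 4 control muscles were below every VDR-OE muscle. The log2 fold change was 0.52 (SE 0.11, edgeR likelihood ratio adjusted p = 0.000294, quasi-likelihood adjusted p = 0.0267). Its within-rat log2 ratio was positive in 7 of 7 rats, at 0.51 ± 0.27 (SD, n = 7), from 0.13 in rat 417 to 0.89 in rat 420 (exact permutation p = 0.0156). Between muscles of one group the coefficient of variation of Col18a1 was 18.3% to 29.3%, against 45.1% to 58.5% for Col14a1. VDR-KD control muscles held 49.7 to 86.8 with a median of 66.7, and the muscles labelled VDR-KD 45.1 to 98.6 with a median of 70.0.

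**Figure D2:**
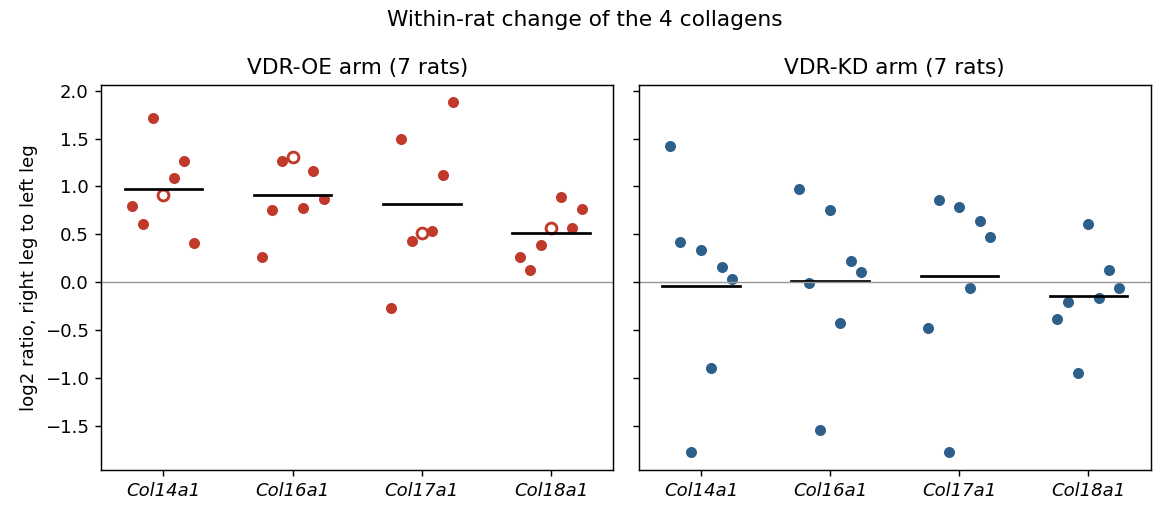
Log2 ratio of normalised CPM in the right leg to that in the left leg (y axis) for each rat (points) and collagen (x axis), with the mean of 7 rats as a black line and rat 419 as an open circle. In the VDR-OE arm every point but that of Col17a1 in rat 416 lies above 0, and in the VDR-KD arm the means lie between -0.15 and 0.07.

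Muscles labelled VDR-KD showed no change in any of the 4 collagens that could be detected with 7 rats. Across all genes of this arm the likelihood ratio test called 0 of 14652 (0%), with 401 at an unadjusted p under 0.05, and neither the quasi-likelihood test (0%) nor DESeq2 called any. The log2 fold change of Col14a1 was -0.02, with a 95% interval from -0.69 to 0.65 (edgeR adjusted p = 0.995). For Col16a1 it was 0.03, from -0.53 to 0.60 (adjusted p = 0.985). For Col17a1 the value was 0.12, from -0.59 to 0.82 (adjusted p = 0.964), and for Col18a1 -0.14, from -0.53 to 0.24 (adjusted p = 0.919). Single rats went far in both directions. Rat 425 was lower on the right for all 4 collagens, by log2 ratios of -1.77 for Col14a1, -1.54 for Col16a1, -1.77 for Col17a1 and -0.94 for Col18a1. In rat 426 all 4 were higher, from 0.34 for Col14a1 to 0.79 for Col17a1. In rat 423 the fibril-associated Col14a1 and Col16a1 were at 1.42 and 0.98. Col17a1 there was at -0.47, on 36 reads on the left and 21 on the right, and Col18a1 at -0.38. Rat 424 did not part by class, with Col14a1 at 0.42, Col16a1 at -0.01, Col17a1 at 0.86 and Col18a1 at -0.21. The SD of the within-rat ratio of Col14a1 was 1.02 in this arm and 0.43 in the VDR-OE arm.

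**Figure D3:**
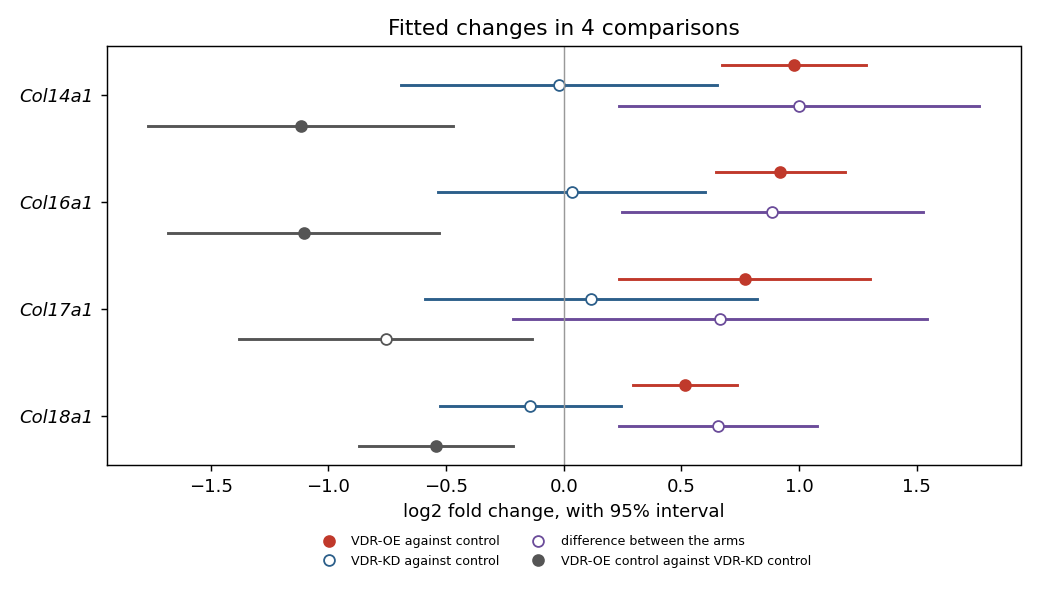
Fitted log2 fold change (x axis) with its 95% interval for each collagen in 4 comparisons; filled circles passed the likelihood ratio test of edgeR after adjustment and open circles did not. The VDR-OE values lie between 0.52 and 0.98, and the values of VDR-OE control against VDR-KD control lie below 0, between -1.12 and -0.54.

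The change in the VDR-OE arm was set against that in the VDR-KD arm by a test of their difference. It was positive for all 4 collagens, at 0.999 for Col14a1 (95% interval 0.23 to 1.77), 0.89 for Col16a1 (0.25 to 1.53), 0.66 for Col17a1 (-0.22 to 1.55) and 0.66 for Col18a1 (0.23 to 1.08) on the log2 scale. None passed after adjustment over all genes, with edgeR adjusted p values of 0.522, 0.441, 0.953 and 0.312. The same test called 18 of 15112 genes (0.119%). With all 14 rats, a change in one arm and none in the other is therefore not shown to differ between the arms for any of the 4. Without rat 423 the difference of Col14a1 was 1.24 and passed (edgeR adjusted p = 0.0332), while that of Col16a1 was 1.05 (adjusted p = 0.0554). Of the 14 fits that each left out 1 rat, this was the only 1 in which Col14a1 passed. Col16a1, Col17a1 and Col18a1 passed in none of them.

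The empty vector muscles stood lowest of the 4 groups for every one of these collagens. Mean normalised CPM of Col14a1 was 31.3 ± 14.1 in VDR-OE control, 64.6 ± 33.2 in VDR-OE, 67.8 ± 31.2 in VDR-KD control and 69.6 ± 40.7 in VDR-KD muscles (SD, n = 7 each). Col16a1 followed the same order, at 14.1 ± 4.76, 28.1 ± 14.5, 30.3 ± 13.8 and 31.6 ± 16.5. Col17a1 did too, at 0.596 ± 0.304, 0.970 ± 0.290, 1.01 ± 0.282 and 1.19 ± 0.677. For Col18a1 the order was VDR-OE control at 48.5 ± 11.2, VDR-KD at 65.1 ± 19.1, VDR-OE at 69.0 ± 15.9 and VDR-KD control at 70.6 ± 12.9. Among the 3 upper groups the mean log2 levels of a gene differed by at most 0.15, and the exact permutation p values adjusted over the 24 group comparisons lay between 0.837 and 1.0, so neighbours in that order did not differ beyond their spread.

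VDR-OE muscles thus lay above their own controls and level with both groups of the other arm. Between the control groups the fitted log2 difference, VDR-OE control minus VDR-KD control, was -1.12 for Col14a1 (SE 0.33, edgeR likelihood ratio adjusted p = 0.0362) and -1.10 for Col16a1 (SE 0.29, adjusted p = 0.0174). It was -0.76 for Col17a1 (SE 0.32, adjusted p = 0.142) and -0.54 for Col18a1 (SE 0.17, adjusted p = 0.0445). That test called 441 of 14458 genes (3.05%). Under the quasi-likelihood test none of the 4 passed, with adjusted p values from 0.0903 to 0.17. Of the 14 fits that each left out 1 rat, the call remained in 5 for Col14a1, 11 for Col16a1 and 4 for Col18a1. The control groups are different rats with different plasmids, so rat, plasmid, arm and any batch cannot be told apart, and this comparison shares the VDR-OE control muscles with the VDR-OE comparison. By exact permutation of log2 levels, 10 of the 24 group comparisons had an unadjusted p under 0.05, all with VDR-OE control as the lower group, and none passed adjustment over the 24 (lowest adjusted p = 0.0625). They include the comparison with VDR-OE muscles, on which the table that names the 4 genes was ranked. All of them share the VDR-OE control muscles, so their common direction is not independent of that choice.

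The 4 collagens were also compared with one another, and with collagen I and collagen VI, by the difference of their log2 ratios in the same rat. In the VDR-OE arm Col14a1 exceeded Col18a1 by 0.46 ± 0.51 (SD, n = 7 rats) and did so in 6 of 7 rats (exact permutation p = 0.0625). Col16a1 exceeded Col18a1 by 0.40 ± 0.40, also in 6 of 7 rats (exact permutation p = 0.0781). Against Col1a1, a chain of collagen I that rose by 0.84 (SE 0.15, edgeR adjusted p = 4.29e-06), the ratio of Col14a1 differed by 0.14 ± 0.20 and that of Col18a1 by -0.33 ± 0.42. Against Col6a1, a chain of the pericellular collagen VI that rose by 0.75 (SE 0.17, edgeR adjusted p = 0.000462), Col16a1 differed by 0.18 ± 0.25 and Col17a1 by 0.08 ± 0.64. None of the 28 differences over both arms had an exact permutation p under 0.05, and the lowest p adjusted over them was 0.5625. Even unadjusted, these tests therefore do not separate the size of change of the fibril-associated, transmembrane and basement membrane genes. With 7 rats the smallest exact p is 0.0156, so 1 difference alone could not pass adjustment over the 28.

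Over the 28 muscles the levels of the 4 genes varied together, to different degrees. Pearson's r of log2 normalised CPM was 0.95 between Col14a1 and Col16a1, and 0.94 after each group's mean was subtracted. It was lowest between Col14a1 and Col17a1, at 0.71 and 0.61 after subtraction. Col18a1 gave 0.75 with Col14a1, 0.81 with Col16a1 and 0.77 with Col17a1. These are descriptions over muscles that share rats, groups and library preparation.

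The genes most like each collagen were ranked among 15111 others by the same r. For Col14a1 they were Col3a1, the fibrillar collagen III, at 0.98, Antxr1, a collagen-binding cell surface receptor, at 0.97, and Adamts2, which removes the N-propeptide of procollagens, at 0.96. For Col16a1 they were Mmp2, a gelatinase, P3h3, a member of the prolyl 3-hydroxylase family, and Col3a1, each at 0.96. Col18a1 was most like Prr5, an mTORC2 component, at 0.90, and Fkbp10, a collagen chaperone, and Lmnb2, a nuclear lamin, both at 0.88. Col17a1 had Camkk1, a calcium-dependent kinase, at 0.92, Plcb2, a phospholipase, at 0.91 and Sec24d, a coat protein of procollagen export, at 0.91, with 2 genes without a symbol ranked between them. Col14a1 had 52 genes with r above 0.9, Col16a1 76, Col17a1 7 and Col18a1 1. Seen from Col14a1, Col16a1 ranked 6th, Col1a1 12th, Col18a1 446th and Col17a1 588th.

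**Figure D4:**
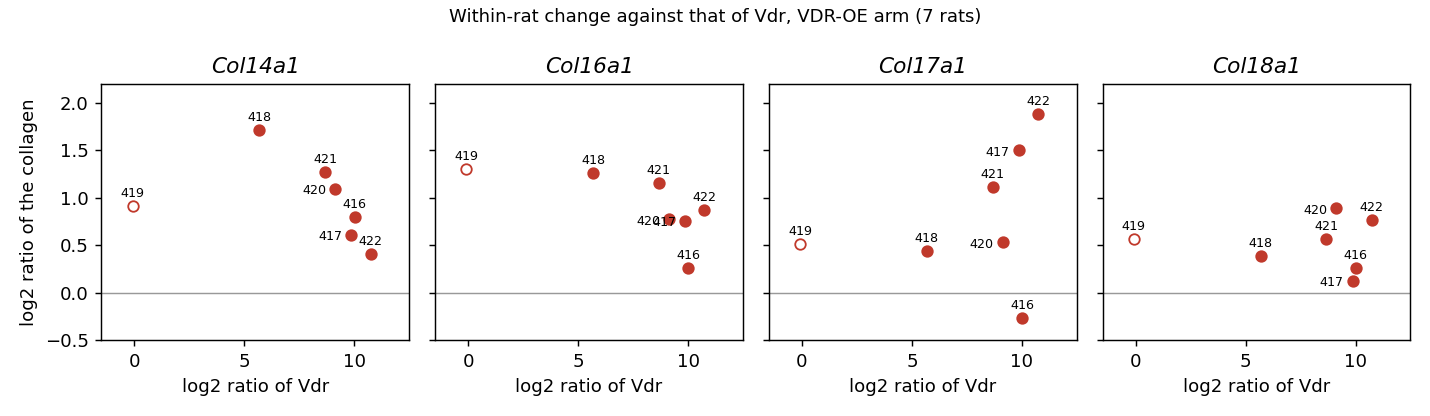
Within-rat log2 ratio of each collagen (y axis) against that of Vdr (x axis) in the 7 rats of the VDR-OE arm, with rat numbers; the open circle is rat 419. Rat 419 lies at -0.08 for Vdr and above 0 for all 4 collagens.

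Rat 419 is described apart because its VDR-OE leg held no more Vdr than its control leg in normalised CPM. The levels were 5.45 and 5.75, on 253 and 180 reads. Its log2 ratio of Vdr was -0.08, against 5.68 to 10.7 in the other 6 rats, and yet its collagens were higher in the VDR-OE leg. Col14a1 went from 61.0 to 115 normalised CPM, Col16a1 from 22.5 to 55.5, Col17a1 from 1.09 to 1.55 and Col18a1 from 57.0 to 84.4. The log2 ratios of 0.91, 1.30, 0.51 and 0.57 lay inside the range of the other rats for Col14a1, Col17a1 and Col18a1 and above it for Col16a1. Without this rat the log2 fold changes of Col14a1, Col16a1 and Col18a1 were 0.99, 0.86 and 0.51 and passed edgeR's likelihood ratio test (adjusted p = 1.04e-05, 6.92e-06 and 0.00344), and that of Col17a1 was 0.83 and did not (adjusted p = 0.0649).

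Across the 6 rats with raised Vdr, the ratio of Col14a1 was smaller where that of Vdr was larger. Rat 419, left out here, had the lowest ratio of Vdr (-0.08) but a Col14a1 ratio of 0.91, inside the range of the 6. The order thus does not hold over the whole arm, and the relation is given for these 6 rats only. Pearson's r was -0.95 (exact permutation p = 0.0028, n = 6) and Spearman's rho -0.94 (exact permutation p = 0.0167), or 0.0112 and 0.0668 after adjustment over the 4 collagens. Without the 2 rats farthest from the median of Vdr, 418 and 422, r was -0.93. Rat 418, with the smallest rise of Vdr among the 6, had the largest ratio of Col14a1, and rat 422, with the largest, had the smallest. For Col16a1 r was -0.67 (exact permutation p = 0.167), for Col17a1 0.35 (p = 0.525) and for Col18a1 0.11 (p = 0.868, both by exact permutation). Without rats 418 and 422 these were -0.86, -0.33 and -0.73, so the signs for Col17a1 and Col18a1 rest on those rats. The same 6 rats gave r of -0.91 for Col1a1 and -0.70 for the mean ratio of 8 fibroblast markers, and their part in the values of Col14a1 was not tested. These relations were computed, and rat 419 was left out, after the values had been seen. Their p values therefore describe these 6 rats and are not a test of the relation.

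Matrix genes of the same pathways were counted from lists, whose symbols come from the ranked table. Of 1877 tested genes with a symbol, 1089 (58.0%) were called higher in the VDR-OE arm, against 10.5% of all genes tested, so the counts are to be read against the larger share. In the VDR-OE arm 6 of 6 named fibrillar collagens rose, with a median log2 fold change of 0.71 (Col3a1 0.84, Col1a1 0.84, Col5a2 0.68), and 5 of 5 collagen VI chains, with a median of 0.75. Over all genes tested the median was -0.0035, and for the 4 genes described here the values were 0.98, 0.92, 0.77 and 0.52. Among 8 named laminins and basement membrane partners, the company of Col18a1, 8 rose, with a median of 0.51 (Nid1, the linker nidogen, 0.57, Lamb1 0.49, Sparc 0.40). On a list of hemidesmosome and cornified envelope genes, Lad1 rose by 0.86 and Evpl was at 0.81 (edgeR adjusted p = 0.0545). Plec, the cytoskeletal linker plectin, fell by 0.35 (edgeR adjusted p = 0.0341). Lad1 and Evpl are also on the keratinocyte list below, so the lists are not separate. The only other network collagen with a symbol was Col8a1, at 0.91 (edgeR adjusted p = 0.00665, quasi-likelihood 0.056), and no other fibril-associated or transmembrane collagen had one. Collagen biosynthesis genes rose in 14 of 15 (Ppib, a prolyl isomerase of procollagen folding, 0.53, Pcolce 0.69, Bmp1 0.52), and so did 4 of 4 proteases that act on these collagens (Ctsb 0.65, Mmp2 0.77, Mmp14 0.67), 12 of 12 collagen-binding proteoglycans and glycoproteins (Fn1 0.93, Bgn 0.85, Dcn 0.64) and 4 of 4 collagen receptors (Mrc2 0.68, Ddr2 0.56, Itga11 0.42). Without rat 419 the counts were 5 of 8 for the basement membrane partners, 10 of 15 for biosynthesis, 4 of 5 for collagen VI and 3 of 4 for the receptors. Over all genes that fit called 1169 of 14395 higher. The share among genes with a symbol was not computed for it. No gene of any list was called in the VDR-KD arm.

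Markers of other cell types were higher in the VDR-OE arm too, and their part in the result was not tested. These counts too stand beside the 58.0% of genes with a symbol, and 10.5% of all genes, that were called higher. All 8 fibroblast markers rose in the VDR-OE arm (median log2 fold change 0.71), and their summed level was 302 to 506 normalised CPM in VDR-OE control, 394 to 879 in VDR-OE, 416 to 739 in VDR-KD control and 436 to 898 in VDR-KD muscles. Their mean log2 ratio ran from 0.29 in rat 416 to 1.17 in rat 421, and in the VDR-KD arm it was lowest in rat 425, at -1.13, the rat with the lowest log2 ratio of each of the 4 collagens. Of 8 macrophage markers the 6 with a symbol rose (median 1.28), and their sum was 88.6 to 352 in VDR-OE control, 246 to 724 in VDR-OE, 251 to 992 in VDR-KD control and 241 to 1396 in VDR-KD muscles. In the VDR-KD arm these 6 were also higher, by a median of 0.60, though none was called. The 4 collagens lay between -0.14 and 0.12 in that arm. For Col17a1 the keratinocyte list matters: 4 of its 8 genes had a symbol, and 2 of them rose (Pkp1 1.38, Lad1 0.86). The sum of the 4 was 2.83 to 7.46 in VDR-OE control (median 4.92) and 4.53 to 26.7 in VDR-OE (median 11.39). It was 5.02 to 13.9 in VDR-KD control (median 6.92) and 4.56 to 24.7 in VDR-KD muscles (median 12.8). The top of the VDR-OE range was uneven: Sfn, of the same list, had a median of 0.861 there but a highest value of 11.41, on 517 reads. The basal keratins of that list had no symbol. Both named smooth muscle markers rose (Tagln 0.50, Notch3 0.38), and no marker with a symbol was at 0 in every muscle.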

How the data were processed

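RNA-seq of 28 rat tibialis anterior muscles (TruSeq libraries, Illumina HiSeq, paired reads) was deposited as raw counts per gene, made by the authors with Rsubread on the rat genome version 6.0 (Ensembl release 89); strand use in counting is not given in the sources used here, and the submitters' processing notes name bcl2fastq 2.17.1.14, FastQC 0.11.5 and edgeR 3.18.1. Depth was 36684220 to 46312167 counts per muscle. Here counts were tested with edgeR 4.0.16 in R 4.3.3 (TMM, genes above the CPM of a count of 10 in at least 7 muscles, likelihood ratio test after the study's methods, Benjamini-Hochberg over all genes, threshold 0.05), with rat as block, since the animal label ties the 2 legs; SE is the log2 fold change over the root of the test statistic. Right and left deviations from the group means correlated at 0.24 within rats of the VDR-OE arm and -0.11 in the VDR-KD arm. The edgeR quasi-likelihood test and DESeq2 1.42.0 were alternatives. Levels are TMM-normalised CPM, with a prior count of 0.5 on the log2 scale. Exact permutation tests are two-sided, with sign flips for legs of one rat and all 3432 splits otherwise. The 4 genes and the lists were chosen with earlier results of these data known. Named genes are the 4 collagens, Vdr, Col1a1, Col6a1, the 3 genes with a symbol most correlated with each collagen, and the 3 most abundant genes of a list. Sfn was named besides for its spread, after the values had been seen. Scripts were tested on simulated counts. There the likelihood ratio test with the block made more false calls than its threshold allows. The quasi-likelihood test made fewer than its threshold allows, except in the VDR-KD arm, where it too made more. DESeq2 made a larger share of false calls than the likelihood ratio test in all 4 comparisons, so a call held under DESeq2 is no stricter check. The likelihood ratio and quasi-likelihood tests are therefore both given.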

Additional observations from a re-analysis of the deposited data

Results flagged for a closer look

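Each collagen was examined for a stray value in each of the 4 groups and for its within-rat ratio in both arms, 24 sets of 7 in all, and chance alone marks about 1 set in 20. A pair of values stood apart by Dixon's criterion (the gap to the nearest value over the range). Col14a1 in the VDR-OE control muscle of rat 419 was at 61.0 normalised CPM, with a gap of 0.644 of the range. Col17a1 in the VDR-OE muscle of the same rat was at 1.55 normalised CPM, on 72 reads, with a gap of 0.5681 of the range, just past the critical value for 7. Rat 419 is also the rat whose VDR-OE muscle showed no rise of Vdr.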

How the results depend on the processing

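The calls for Col14a1, Col16a1 and Col18a1 in the VDR-OE arm held under every alternative tried: no block, other size factors, other filters, a fit of all 28 muscles, the quasi-likelihood test, DESeq2 and each rat left out. Col17a1 kept its direction and lost its call without the block (0.70, adjusted p = 0.123), without a filter (0.77, 0.0587), with all 28 muscles (0.78, 0.144), under the quasi-likelihood test (0.78, 0.0863) and under DESeq2 (0.79, 0.0545), and ranged from 0.60 to 0.93 with 1 rat left out. The cause was not tested. Leaving out the replicate block (rat) changed no other call of the 4 genes; it moved the VDR-OE count from 2262 to 1390 genes and Col14a1 in the VDR-KD arm from -0.02 to 0.048. In that arm the values with 1 rat left out ran from -0.26 to 0.26 for Col14a1, -0.13 to 0.28 for Col16a1 and -0.0265 to 0.41 for Col17a1.

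Genes called in the VDR-OE arm numbered 663 with all 28 muscles, 1037 under the quasi-likelihood test, and 908 (without rat 421) to 5069 (without rat 416) with 1 rat left out. In the VDR-KD arm they numbered 5 without a filter, 4 with the filter passed in at least 2 muscles, and 0 to 127 (without rat 423) with 1 rat left out. For the difference between the arms the count was 0 under the quasi-likelihood test, where 1099 had an unadjusted p under 0.05, 44 under DESeq2 and 6 (without rat 421) to 195 (without rat 423) otherwise. For the controls it was 4 under the quasi-likelihood test, 1035 under DESeq2 and 89 (without rat 425) to 1539 (without rat 429) otherwise. Of 43 other named genes (Sfn not among them) in the VDR-OE arm 12 lost their call under the quasi-likelihood test and 20 without the block, with none reversed. Under the quasi-likelihood test 5 of 8 basement membrane partners, 1 of 4 collagen receptors, 3 of 6 macrophage markers and 1 of 4 keratinocyte markers were called. So were 10 of 15 biosynthesis genes, 4 of 5 collagen VI chains, 3 of 4 proteases and 7 of 8 fibroblast markers. Col8a1 and Plec were not. Over all genes that test called 1037 of 14526 (7.14%) in either direction. The share among genes with a symbol was not computed for it. Col17a1 rests on 9 to 122 reads per muscle, and the other 3 collagens on at least 221.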
